A study of Mus musculus with 12 samples.

Results

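A set of 10 genes that neutrophils use for their granules, their cytosolic alarm proteins and their surface receptors was followed in tumor cells sorted from mouse lung. They were selected by name, as S100a8, S100a9, G0s2, Lcn2, Ngp, Camp, Ltf, Mpo, Csf3r and Cxcr2, and all 10 of these were found among the 54146 genes of the table. The cells were D2A1, a mouse mammary carcinoma line marked with a fluorescent histone (H2B-GFP) and with the membrane dye CellVue Claret (CVC), which is diluted when a cell divides. They were injected into the tail vein of young adult female mice, and fluorescent cells were sorted from the lungs as CVC-positive (dormant) or CVC-negative (growing). Hosts were either WT (floxed controls by the methods) or Tgfbr2 KO, in which Cre driven by the Lyz2 promoter (LysM-Cre) deletes the type II TGF-β receptor in myeloid cells, neutrophils included. The 4 groups of 3 libraries are named growing WT, growing KO, dormant WT and dormant KO. The tumor cells carried no deletion, all groups shared the same line and dye, each library came from a small sorted aliquot, and the host strain was not given in the sources used here.

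Neutrophils pack their proteins into granules in the order in which they mature in the bone marrow. Primary granules form first and hold myeloperoxidase and serine proteases, secondary granules hold lactoferrin, cathelicidin, lipocalin 2 and neutrophilic granule protein, and tertiary granules hold gelatinase. The calcium-binding pair S100A8 and S100A9 (calprotectin) fills the cytosol and is released at sites of inflammation, while the receptors for G-CSF and for CXC chemokines appear on the surface and govern output from the marrow and migration into tissue such as lung. Messages for primary and secondary granule proteins are made mainly in marrow precursors, whereas calprotectin messages persist in mature cells.

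Values are TPM, a relative transcript abundance that is scaled for gene length and to 1 common library total, so that depth is unknown. Between 11325 and 15315 genes were above 0 per library. All WT libraries were in library batch 1 and all KO libraries in library batch 2, so that host and batch cannot be told apart among the 12 libraries analysed, whereas dormant and growing libraries of 1 host came from the same batch. The table also holds 6 columns whose names read WT and batch 2, but no label ties them to a sample, and their values were not used here. The dormant KO libraries stood apart from their label. Spp1, the most abundant tumor line transcript followed here, was between 1236 and 1509 TPM in them and between 28980 and 39951 TPM in the other 9 libraries, while the alveolar type 2 markers summed to between 40070 and 42410 TPM in them and to at most 467 TPM elsewhere. They are therefore called the libraries labelled dormant KO, shortened to dormant KO. Tgfbr2 itself ranged from 0.14 to 11.5 TPM, but the tumor cells carry it intact, so that it does not check the host genotype.

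The 2 calprotectin genes and G0s2 are the members with the highest levels, and the bases before their start sites are shown for that reason. Mouse S100a8 (chr3:90668978-90670035, plus strand) and S100a9 (chr3:90692632-90695721, minus strand) lie 22.6 kb apart with 0 protein-coding genes between them, and G0s2 lies at chr1:193272161-193273217 on the minus strand (mm10, GENCODE M21). The sequences are from RefSeq (GRCm38.p6), run 5′ to 3′ on the strand of the gene and stop short of any annotated exon. They cover 250 to 94 bases before the RefSeq start of S100a8 (chr3:90668821-90668977), 250 to 1 bases before that of S100a9 (chr3:90695722-90695971) and 149 to 30 bases before that of G0s2 (chr1:193273218-193273337). Capitals mark matches, on either strand, to TTGCNNAA (C/EBP, the family that drives granule genes), GAGGAA (PU.1, the myeloid lineage factor) or CCCCACCC (KLF4).
S100a8: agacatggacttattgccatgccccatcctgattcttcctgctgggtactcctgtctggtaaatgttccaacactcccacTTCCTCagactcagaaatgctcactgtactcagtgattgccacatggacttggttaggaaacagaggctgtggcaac
S100a9: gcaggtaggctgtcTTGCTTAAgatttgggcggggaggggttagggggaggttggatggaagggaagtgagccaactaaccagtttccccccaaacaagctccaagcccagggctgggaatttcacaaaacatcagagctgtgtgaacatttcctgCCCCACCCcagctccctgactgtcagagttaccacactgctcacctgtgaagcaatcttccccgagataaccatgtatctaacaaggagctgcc
G0s2: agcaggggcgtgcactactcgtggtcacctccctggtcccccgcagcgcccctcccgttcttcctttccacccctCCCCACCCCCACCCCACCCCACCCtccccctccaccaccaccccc

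In the full window of 250 bases before the start, the C/EBP letters were found at 4 of 10 members (S100a9, Ngp, Ltf and Lcn2) and in 9.56% of 32851 mouse promoters. The PU.1 letters were found at 6 members (S100a8, Csf3r, Cxcr2, Ltf, Lcn2 and Mpo) and in 23.3% of promoters. The KLF4 letters were found at 4 members (S100a9, Csf3r, Ltf and G0s2) and in 9.05% of promoters, and the run of capitals before G0s2 holds 4 overlapping matches. These are matches of letters only, and binding was not measured in these data.

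S100a8, S100a9 and G0s2 shared 1 order of group means. S100a8, the smaller calprotectin subunit, stood at 428, 559 and 304 TPM in dormant WT, 3207, 2912 and 3361 TPM across dormant KO, 51.1, 60.7 and 38.3 TPM in growing WT and 67.8, 87.4 and 66.0 TPM in growing KO. The 4 groups did not overlap, and their order was growing WT, growing KO, dormant WT and dormant KO. By mean TPM it was the gene at rank 39 for dormant KO and 390 for dormant WT, and at rank 1828 for growing KO and 2233 for growing WT.

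S100a9, its partner subunit, stood at 184, 327 and 22.0 TPM in dormant WT, 1140, 1092 and 987 TPM across dormant KO, 0.64, 17.0 and 14.9 TPM in growing WT and 35.6, 22.0 and 29.1 TPM in growing KO. The dormant WT libraries were spread over more than a factor of 10, and the lowest of them lay just below the growing KO libraries. Growing WT replicate 1 was lower than every other library.

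G0s2 encodes an inhibitor of triglyceride breakdown that is abundant in neutrophils and is not a granule protein. Its levels were 67.5, 88.5 and 41 TPM in dormant WT, 371, 378 and 388 TPM across dormant KO, 7.0, 10.7 and 6.77 TPM in growing WT and 14.2, 13.2 and 10.1 TPM in growing KO. Growing WT and growing KO overlapped, and both lay below dormant WT and dormant KO. G0s2 overlaps Lamb3 on the opposite strand and whether reads were counted by strand was not given, but Lamb3 was at most 0.18 TPM in any library.

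**Figure D1:**
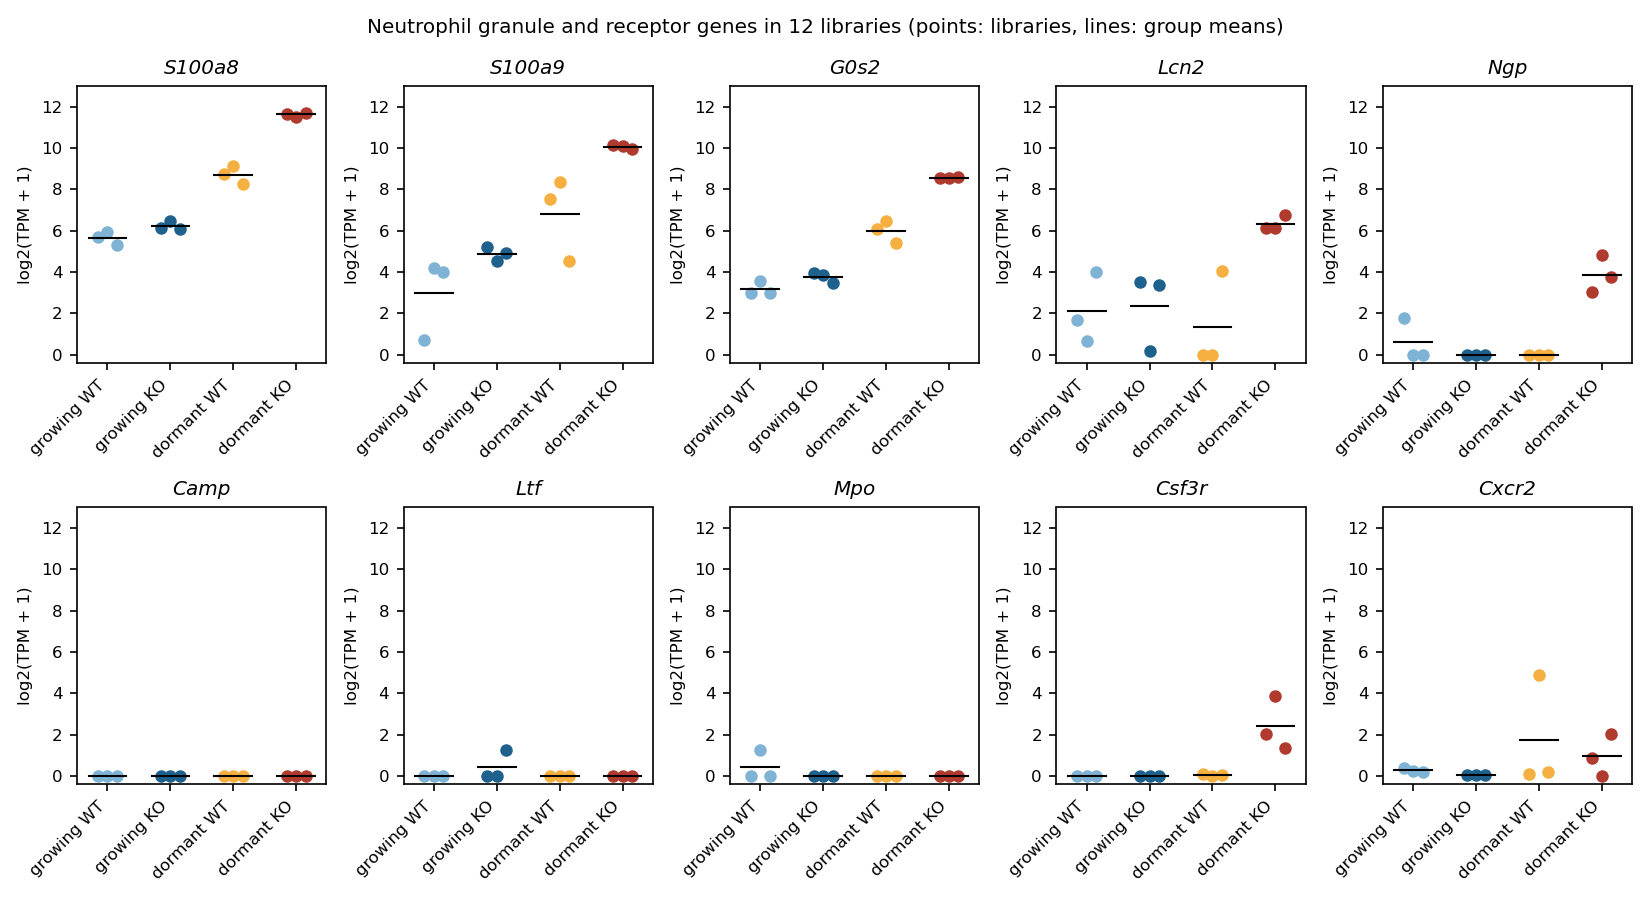
Levels of the 10 genes in each library, as log2(TPM + 1) on 1 common vertical axis, by group on the horizontal axis, with points for the 3 libraries of a group and lines for their means. S100a8, S100a9 and G0s2 step up from growing to dormant WT to dormant KO, Lcn2, Ngp and Csf3r stand out in dormant KO, and Camp is listed at 0 in all 12 libraries.

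The 2 calprotectin transcripts kept a narrow ratio in some groups and not in others. S100a8 was 2.81, 2.67 and 3.40 times S100a9 in dormant KO, on the TPM scale, and 1.90, 3.98 and 2.27 times in growing KO. In dormant WT the ratio was 2.32, 1.71 and 13.8, and in growing WT it was 79.8, 3.57 and 2.57. The 2 high ratios, in dormant WT replicate 3 and growing WT replicate 1, came with the lowest S100a9 level of their group. Together the 2 transcripts made up 0.435%, 0.400% and 0.435% of all TPM across dormant KO, 0.0612%, 0.0886% and 0.0326% in dormant WT, and between 0.00517% and 0.0109% in the growing libraries.

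Among secondary granule genes, Lcn2 and Ngp were detected, and Camp and Ltf were listed at or near 0. Lcn2, which encodes the siderophore-binding lipocalin 2 (minus strand, chr2:32384633-32388252), stood at 0, 0 and 15.6 TPM in dormant WT, 68.6, 69.6 and 107 TPM across dormant KO, 2.15, 0.60 and 15 TPM in growing WT and 10.4, 0.14 and 9.22 TPM in growing KO. Dormant KO lay above every other library, and the other 3 groups overlapped each other. Ngp, which encodes a cystatin-like protein of the secondary granule (plus strand, chr9:110419747-110423012), was at 7.14, 27.4 and 12.6 TPM across dormant KO, 2.46, 0 and 0 TPM in growing WT and 0 in all 6 libraries of dormant WT and growing KO.

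Camp, the cathelicidin gene (chr9:109847379-109849617), was listed at 0 in all 12 libraries, and it lies 570.1 kb from Ngp on chromosome 9. Ltf, the lactoferrin gene (chr9:111019271-111042767), was above 0 only in growing KO replicate 3, at 1.41 TPM. Mpo, the myeloperoxidase gene and the only primary granule member (chr11:87793581-87804413), was above 0 only in growing WT replicate 2, at 1.36 TPM. A listed 0 cannot be given a detection limit because the depth is unknown.

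The 2 receptors were low. Csf3r, the G-CSF receptor gene (chr4:126024550-126044440), was at 3.04, 13.8 and 1.53 TPM across dormant KO and at most 0.08 TPM in the other 9 libraries. Cxcr2, the receptor for CXC chemokines such as CXCL1 and CXCL2 (chr1:74153989-74161246), stood at 0.08, 28.7 and 0.16 TPM in dormant WT, 0.84, 0.01 and 3.16 TPM across dormant KO, 0.29, 0.20 and 0.16 TPM in growing WT and 0.04, 0.03 and 0.04 TPM in growing KO. The 28.7 TPM of dormant WT replicate 2 stood alone, since every other library was at most 3.16 TPM.

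Within dormant WT the members did not rank the libraries alike. S100a8, S100a9 and G0s2 were each highest in replicate 2 and lowest in replicate 3, Cxcr2 was also highest in replicate 2, and Lcn2 was above 0 only in replicate 3. Over all 12 libraries, as a description, Pearson's r of log2(TPM + 1) was 0.998 between S100a8 and G0s2, 0.914 between S100a8 and S100a9, 0.906 between Csf3r and Ngp and 0.566 between S100a8 and Lcn2. The 12 points share groups and batches.

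In all, 6 members reached at least 1 TPM in at least 3 libraries and were tested with limma over all 13002 such genes. Cxcr2, Camp, Ltf and Mpo did not, and they have no test. Ngp and Csf3r entered only through the dormant KO libraries, the group where they are high, so that the counts below describe the members and support nothing further. The labels do not say that the 3 libraries of a group came from separate mice, although the study's legends speak of mice. The p-values measure the spread between libraries within groups, pooled for each gene over all 4 groups and not only the groups compared.

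The first comparison asked how the libraries labelled dormant KO differed from dormant WT. All 6 tested members were called higher in dormant KO, where 12.9% of all tested genes were called higher. S100a8 was 7.34-fold higher by mean TPM, a difference of 2.91 ± 0.25 (SE) on the log2(TPM + 1) scale (limma, adjusted p = 1.06e-05). G0s2 was 5.77-fold higher, with a difference of 2.58 ± 0.37 (limma, adjusted p = 0.000377). Each of the 3 dormant KO libraries was above each of the 3 dormant WT libraries for all 6 members, as for 18.6% of tested genes.

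S100a9 was 6.04-fold higher by mean TPM in the same comparison, with a difference of 3.26 ± 1.0 (limma, adjusted p = 0.0334). Its call was lost without dormant WT replicate 3 (difference 2.12, adjusted p = 0.0876) and without dormant KO replicate 1, 2 or 3 (adjusted p = 0.0888, 0.0835 and 0.0804). Lcn2 differed by 4.99 ± 1.26 (limma, adjusted p = 0.0129). Its call was lost with array weights (adjusted p = 0.162) and kept without any 1 library, and no fold is given, since only 1 dormant WT library was above 0. Csf3r differed by 2.37 ± 0.52 (limma, adjusted p = 0.00605), from levels near 0 in dormant WT. This call was lost in 4 of 17 alternatives, namely a pseudocount of 5 (difference 0.98), quantile normalization (1.32, adjusted p = 0.127), a fit of only the groups compared (adjusted p = 0.0959) and array weights (adjusted p = 0.0927). For Ngp, at 0 in dormant WT, no fold is given (limma, adjusted p = 0.000468).

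In growing cells the same comparison of hosts gave 0 called members, where 0.977% of all tested genes were called in either direction. At an unadjusted p under 0.05 there was 1 member, S100a8, which was 1.47-fold higher in growing KO (difference 0.56 ± 0.25, limma, unadjusted p = 0.0442, adjusted p = 0.637). S100a8 and S100a9 did not overlap between the growing groups and were higher in KO hosts, as were 13.3% of tested genes. S100a9 differed by 1.92 ± 1.0 (limma, adjusted p = 0.797) and G0s2 by 0.57 ± 0.37 (limma, adjusted p = 0.969). A p above the threshold does not show that the growing groups were alike.

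Dormant and growing cells were next compared within WT hosts, where both groups were in batch 1 and neither is dormant KO. S100a8, S100a9 and G0s2 were called higher in dormant cells, where 1.85% of all tested genes were called higher. S100a8 was 8.60-fold higher by mean TPM (difference 3.06 ± 0.25, limma, adjusted p = 2.88e-05) and G0s2 8.05-fold higher (2.82 ± 0.37, limma, adjusted p = 0.000871). S100a9 was 16.4-fold higher (3.84 ± 1.0, limma, adjusted p = 0.0364), but this call was lost without any 1 of 10 libraries, all but dormant WT replicate 3 and dormant KO replicate 2, with an adjusted p between 0.0501 and 0.118. Lcn2 (-0.76 ± 1.26), Ngp and Csf3r were not called, and their dormant and growing WT libraries overlapped.

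In the comparison within KO hosts all 6 tested members were called higher in the libraries labelled dormant KO than in growing KO, where 8.31% of tested genes were called higher. This comparison shares the dormant KO libraries with the first. S100a8 was 42.8-fold higher by mean TPM (difference 5.41 ± 0.25, limma, adjusted p = 1.44e-07), S100a9 37.1-fold (5.19 ± 1.0, adjusted p = 0.00326) and G0s2 30.3-fold (4.83 ± 0.37, adjusted p = 8.7e-06). Lcn2 was 12.4-fold higher (3.99 ± 1.26, limma, adjusted p = 0.0463), and this call was lost without any 1 of 8 libraries, namely each dormant KO or growing KO library and growing WT replicates 1 and 2, with an adjusted p between 0.0526 and 0.179. Ngp (adjusted p = 0.000627) and Csf3r (adjusted p = 0.00663, not called with a pseudocount of 5) were at 0 in all growing KO libraries, so that no fold is given.

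The interaction tested whether the dormant against growing difference was larger in KO than in WT hosts. S100a8, Ngp and G0s2 were called, where 6.18% of tested genes were called in that direction. The S100a8 difference was larger by 2.35 ± 0.35 (limma, adjusted p = 0.00186) and the G0s2 difference by 2.0 ± 0.52 (adjusted p = 0.0309). The G0s2 call was lost without any 1 of the 9 libraries other than dormant WT, with an adjusted p between 0.0521 and 0.0824. For S100a9 the interaction was 1.34 ± 1.41 (limma, adjusted p = 0.656), for Lcn2 4.75 ± 1.78 (adjusted p = 0.126) and for Csf3r 2.38 ± 0.74 (adjusted p = 0.0657). The Lcn2 interaction was called without dormant WT replicate 3 (6.10, adjusted p = 0.0235).

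**Figure D2:**
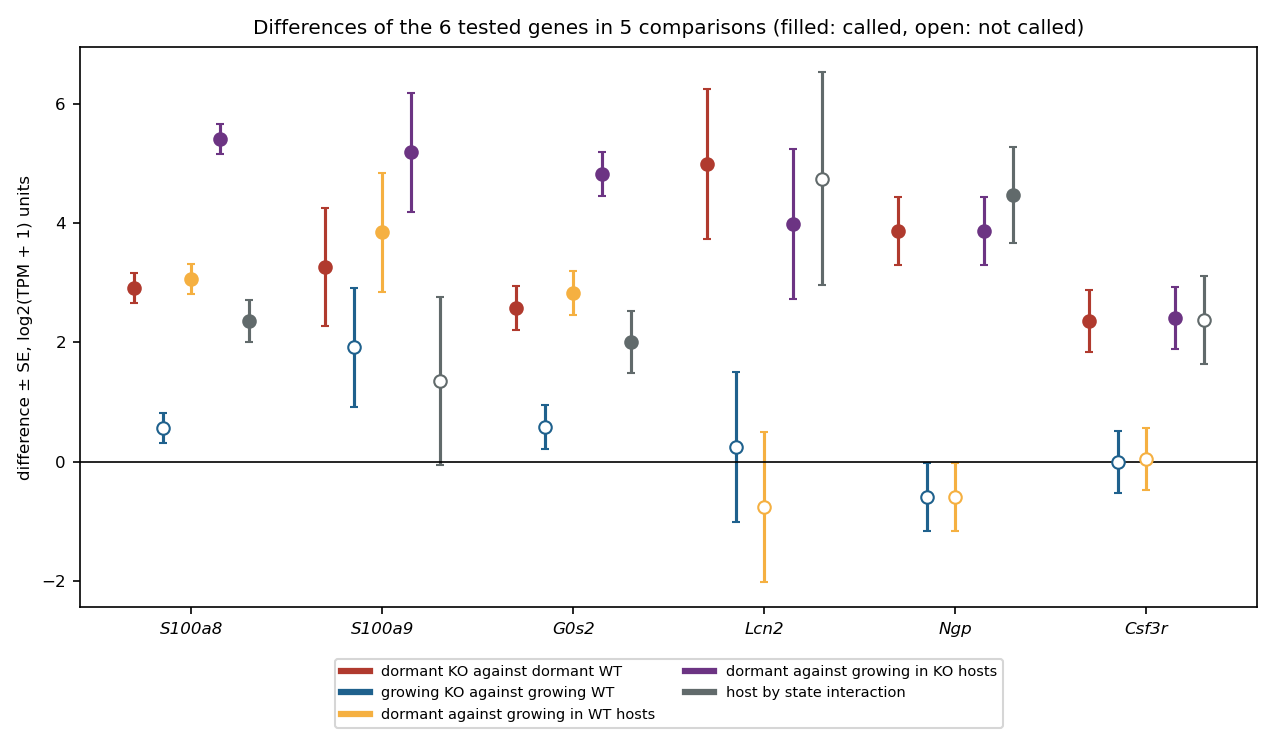
Difference of group means with its SE (vertical axis, log2(TPM + 1) units) for the 6 tested genes in 5 comparisons, with filled points where the gene was called. S100a8 and G0s2 have the smallest errors (SE 0.25 and 0.37 between groups), Lcn2 the largest (1.26), and no point of growing KO against growing WT is filled.

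The members were then read beside markers of the cells that a lung sort could hold. The 10 defining neutrophil markers summed to at most 1.76 TPM in a growing WT library and 10.4 TPM in a growing KO library, to between 35.9 and 187 TPM in dormant WT and to between 379 and 525 TPM for dormant KO. Members Csf3r and Cxcr2 are 2 of these markers, and without them the sums were at most 1.46, between 3.72 and 10.4, between 35.7 and 187 and between 366 and 521 TPM in the same order of groups. Most of the sum in dormant KO came from Retnlg, which encodes a resistin-like protein of neutrophils and which stood at 32.5, 0.16 and 159 TPM in dormant WT, 480, 311 and 353 TPM across dormant KO and no more than 10.4 TPM in growing cells. In dormant WT replicate 2, where Retnlg was near 0, the sum came from Stfa2l1 and Cxcr2. Member Lcn2 was highest in dormant KO, as was the sum of the 10 markers, but the 2 did not follow each other in every library. In growing WT replicate 3 Lcn2 was at 15 TPM and the sum at 0.16 TPM. In dormant WT replicate 2 Lcn2 was at 0 and the sum at 69.9 TPM. Ly6g, the surface antigen by which mouse neutrophils are usually gated, was above 0 only in dormant KO, at 0.16, 12.1 and 0.05 TPM, and Elane, the neutrophil elastase gene, was listed at 0 in all 12 libraries.

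The summed markers of each other cell type were highest in dormant KO, except those of the tumor line, and they ordered the remaining groups in different ways. Macrophage and monocyte markers (12 genes) summed to between 46.9 and 83.8 TPM in growing WT, 190 and 225 TPM in growing KO, 1662 and 2106 TPM in dormant WT and 4189 and 4397 TPM for dormant KO. Of these, 11 were tested and 3 called between the dormant groups, each with dormant KO above dormant WT, as were 12.9% of all tested genes. C1qa, at 323, 172 and 161 TPM in dormant WT, read 117, 141 and 129 TPM across dormant KO. Most of the sum came from Lyz2 and Ctss. In the dormant groups the leukocyte sum likewise came mostly from Cd52. Ptprc, the common leukocyte antigen gene, read 46.6, 46.4 and 13.5 TPM in dormant WT and 23.4, 25.4 and 24.95 TPM across dormant KO. Lyz2, whose promoter drives the Cre and which both neutrophils and macrophages express, stood at 782, 1407 and 1049 TPM in dormant WT and 2918, 2944 and 2833 TPM across dormant KO. The 7 erythroid markers summed to between 8988 and 13030 TPM in dormant WT, 50830 and 56260 TPM for dormant KO, 6196 and 6851 TPM in growing WT and 6881 and 7793 TPM in growing KO. The 8 lymphocyte markers summed to at most 8.33 TPM in dormant WT, between 199 and 294 TPM across dormant KO, between 7.42 and 12.6 TPM in growing WT and between 19.4 and 27.8 TPM in growing KO. The 7 club and airway markers lay between 8.47 and 267 TPM in dormant WT, 1775 and 2347 TPM for dormant KO, 292 and 310.1 TPM in growing WT and 1101 and 1123 TPM in growing KO. Most of that sum came from Scgb1a1. Of 5 tested, 0 were called higher and 1 lower in dormant KO than in growing KO (8.31% and 9.48% over all tested genes). The lower gene, Bpifa1, was at 0, 3.71 and 0 TPM across dormant KO and 47.0, 53.7 and 79.9 TPM in growing KO. The 4 tumor line markers summed to between 1467 and 1875 TPM across dormant KO and between 31030 and 43090 TPM elsewhere. Spp1 made up most of that sum, and Krt18, another of the 4, overlapped between the dormant groups (131 to 231 TPM in dormant WT and 159 to 249 TPM for dormant KO). What part any of these cells has in the members' levels was not tested, and in such bulk libraries fewer cells of a type and less RNA per cell cannot be told apart.

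**Figure D3:**
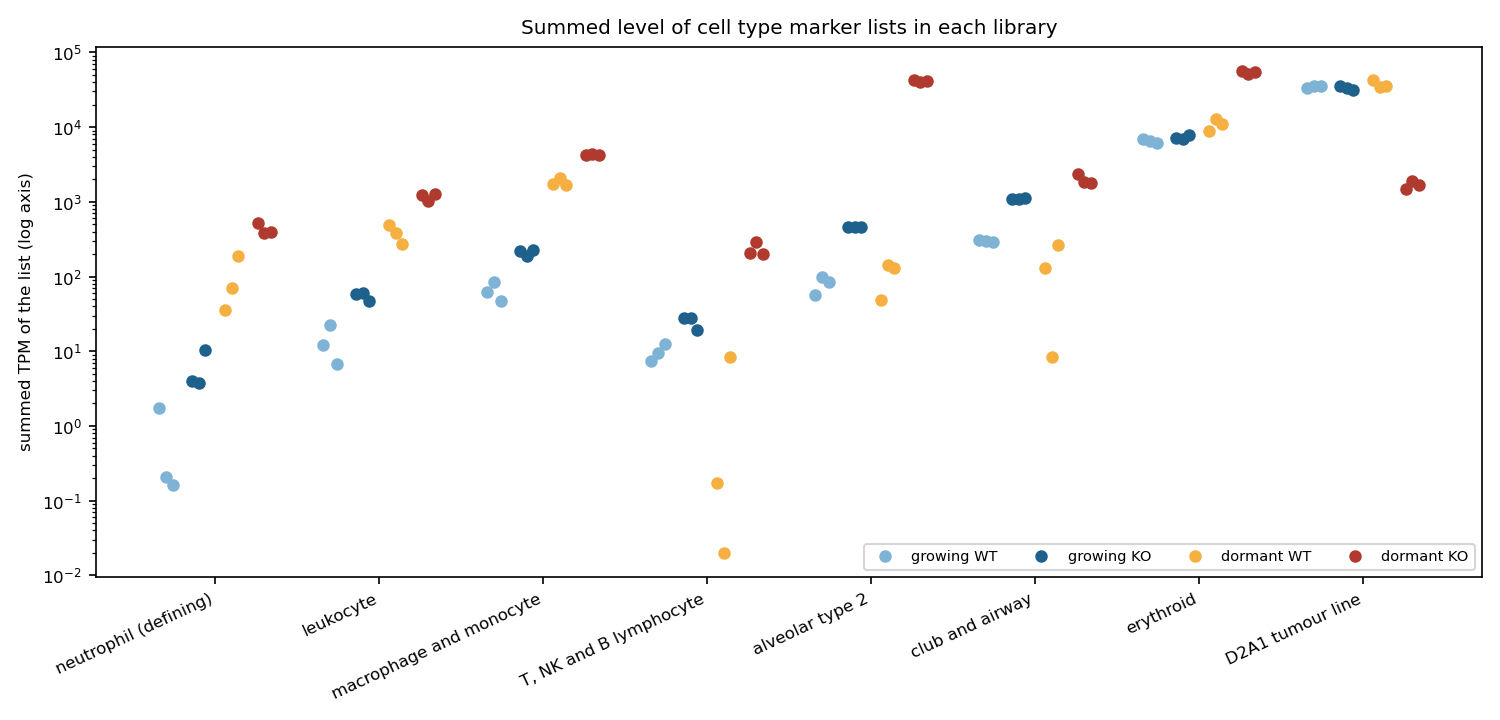
Summed TPM of 8 marker lists (horizontal axis) in each library (points, coloured by group), on a log axis. Neutrophil, leukocyte, macrophage and erythroid sums rank the groups as S100a8 does, lymphocyte, alveolar type 2 and club and airway sums do not, and tumor line markers are lowest in dormant KO, between 1467 and 1875 TPM.

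The 8 wider lists of 74 genes around these members held 53 tested genes. Of these, dormant KO was called above dormant WT for 26 and below it for 2 (49.1% higher, with 12.9% higher and 9.39% lower over all tested genes), and their median difference was 1.93, with 0.17 over all genes (-0.14 for all genes after quantile normalization). In growing cells 1 was called higher in growing KO, with 0.715% over all tested genes. Within WT hosts 9 were higher and 2 lower in dormant cells (17% higher, with 1.85% higher and 5.67% lower over all tested genes), and in dormant KO against growing KO 26 were higher and 4 lower (49.1% higher, with 8.31% higher and 9.48% lower over all tested genes). Of the 53, 17 passed the filter only through the dormant KO libraries, as did 10.9% of all tested genes, and these make up 11 of the 26 called above dormant WT and 12 of the 26 called above growing KO. The filter favours such genes where they are high in dormant KO, so that these counts are a description. The other 6 of the 17 were not called between the dormant groups. Besides Ngp and Csf3r, the 17 hold Pglyrp1, Mmp8, Stfa2l1, BC100530, Trem1, Fpr1, Cybb, Cebpa, Ppbp and Cxcl15 among the genes named below.

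None of the 6 primary granule genes was tested, and their summed level was at most 3.98 TPM in any library. Of 11 secondary and tertiary granule genes, 7 were tested. Dormant KO exceeded dormant WT in 6 and fell below it in 1, with 12.9% higher and 9.39% lower over all tested genes. Of the 6, Ngp, Mmp8 and Pglyrp1 passed the filter only through dormant KO. Lrg1, which encodes a leucine-rich glycoprotein of granules, reached 31.1, 61.2 and 24.4 TPM across dormant KO, where the dormant WT libraries held 0.20, 0 and 0 TPM (limma, adjusted p = 6.01e-05). Pglyrp1, a peptidoglycan-binding granule protein gene, was at 0.80, 0 and 0 TPM and at 20.1, 37.1 and 28.2 TPM (limma, adjusted p = 0.00036). Mmp9, gelatinase B of the tertiary granule, was the gene that went the other way, at 20.3, 14.8 and 5.97 TPM in dormant WT, 1.26, 7.05 and 0.31 TPM across dormant KO and between 8.73 and 32.4 TPM in growing cells, and its dormant groups overlapped.

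Among 11 tested calprotectin, stefin and other neutrophil products, 6 were called between the dormant groups, all higher in dormant KO (12.9% over all tested genes). In dormant against growing cells 4 were higher in WT hosts (1.85% over all tested genes) and 8 in KO hosts (8.31%). BC100530 among the 6, and BC100530 and Stfa2l1 among the 8, passed the filter only through dormant KO. Wfdc21, a whey acidic protein family gene of neutrophils and airway, was at 77.7, 42.1 and 68.9 TPM across dormant KO, 0 in all dormant WT libraries and at no more than 4.15 TPM in growing cells (limma, adjusted p = 7.43e-06 between the dormant groups). Stfa2l1, a stefin of neutrophils, stood at 0, 41 and 27.6 TPM in dormant WT, 37.7, 36.9 and 35.5 TPM across dormant KO and 0 in the 6 growing libraries. Stefin genes are near-identical copies, so that reads may have been divided among them. Retnlg was called between the dormant groups (difference 4.35 ± 1.44, limma, adjusted p = 0.048), but not without any 1 of 10 libraries, all but dormant WT replicate 3 and growing KO replicate 1 (adjusted p between 0.0519 and 0.127). Without dormant WT replicate 2 the difference was 2.36.

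Of 11 tested receptor and surface genes, 5 were called between the dormant groups, with dormant KO above dormant WT (12.9% over all tested genes). Csf3r, Fpr1 and Trem1 among them passed the filter only through dormant KO, where they are high. In dormant against growing WT 1 was higher (1.85% over all tested genes). Clec4d, a C-type lectin receptor of myeloid cells, was that 1, at 23.1, 41.5 and 20.3 TPM in dormant WT and no more than 1.95 TPM in growing WT (difference 3.85 ± 0.50, limma, adjusted p = 0.000885). Trem1, a triggering receptor of neutrophils and monocytes, was at 8.65, 6.56 and 4.20 TPM across dormant KO and 0 in dormant WT and growing KO (limma, adjusted p = 0.000383 between the dormant groups). Clec4e, the partner lectin of Clec4d, rose from at most 0.19 TPM in dormant WT to 5.83, 21.7 and 16.4 TPM across dormant KO (limma, adjusted p = 0.000239).

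Of the 6 NADPH oxidase genes, Cyba was called in each of the 4 comparisons of 2 groups, and it was the 1 gene of the 53 called between growing hosts. Its call between the dormant groups was lost with array weights (adjusted p = 0.0502). Cyba encodes the p22phox subunit, which is made in many cell types besides neutrophils. It stood at 271, 267 and 346 TPM in dormant WT, 1158, 1032 and 1187 TPM across dormant KO, 4.09, 10.2 and 7.52 TPM in growing WT and 90.7, 58.4 and 75.6 TPM in growing KO, and the 4 groups did not overlap. Growing KO exceeded growing WT by 3.25 ± 0.31 (limma, adjusted p = 0.000503), and dormant WT exceeded growing WT by 5.22 ± 0.31 (adjusted p = 2.12e-06). Cybb, the gp91phox subunit that is more restricted to phagocytes, was at 33.3, 21.4 and 29.6 TPM across dormant KO, 24.95, 0.21 and 12.5 TPM among dormant WT and at most 0.80 TPM in growing cells. It was called between dormant and growing KO (limma, adjusted p = 0.00472) but not between the dormant groups (adjusted p = 0.159), which overlapped. Cybb passed the filter only through dormant KO.

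Among the 6 granulopoiesis transcription factors, 2 were listed at 0 in all libraries, Cebpe and Gfi1, which act at the granule-forming stages of the marrow. Cebpa was at 1.61, 2.69 and 1.55 TPM across dormant KO and 0 in dormant WT (limma, adjusted p = 0.00343), and it entered the test through dormant KO alone. Its call was lost in 3 of 17 alternatives (a pseudocount of 5, difference 0.47, quantile normalization, difference 0.96, and array weights, adjusted p = 0.112). The other 3 tested factors were not called in any comparison.

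The ligands of the receptors moved in both directions. Cxcl1, a CXCR2 ligand, stood at 2093, 1625 and 1255 TPM in dormant WT, 147, 103 and 144 TPM across dormant KO and between 1265 and 1832 TPM in the growing libraries, so that dormant KO lay below every other library (interaction -3.33 ± 0.27, limma, adjusted p = 3.09e-05). Csf3, which encodes the ligand of Csf3r, reached 14.2, 22.8 and 12.5 TPM in growing WT, where dormant WT held at most 0.14 TPM (difference -4.02 ± 0.66, limma, adjusted p = 0.00393). Cxcl5, another CXCR2 ligand, reached 15.1, 15 and 8.55 TPM in growing WT and was 0 in dormant WT (limma, adjusted p = 0.0019).

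Cxcl15, a chemokine of lung epithelium, was at 97.5, 79.0 and 58 TPM across dormant KO and at most 0.38 TPM in every other library (interaction 6.09 ± 0.60, limma, adjusted p = 0.000132). Ppbp, a platelet chemokine gene, was at 28.2, 13.6 and 23.8 TPM across dormant KO and 0 in dormant WT and growing KO (limma, adjusted p = 2.51e-05 between the dormant groups). Both Cxcl15 and Ppbp passed the filter only through dormant KO, where they are high, so that their p-values are a description.

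Receptors that bind released granule proteins were also read. Of 7 genes 6 were tested, and between the dormant groups Ager, Cd36 and Bsg were called, with dormant KO above dormant WT, and 3 were not. Over all tested genes 12.9% were called higher there. Ager, the receptor for advanced glycation end products that binds S100 proteins and is a marker of alveolar type 1 cells, was at 391, 633 and 447 TPM across dormant KO, 0.86, 0 and 0 TPM in dormant WT and at most 15.3 TPM in growing cells (difference between the dormant groups 8.61 ± 0.72, limma, adjusted p = 9.4e-06). Cd36, a scavenger receptor of macrophages, endothelium and platelets, was at 195, 276 and 195 TPM across dormant KO, where the dormant WT libraries held 21.3, 10.01 and 38.1 TPM (3.37 ± 0.65, limma, adjusted p = 0.00275), a call lost with array weights (adjusted p = 0.0887). Bsg (basigin, which binds S100A9) was at 353, 551 and 316 TPM across dormant KO and between 151 and 322 TPM elsewhere, and its call was lost in 3 of 21 alternatives. Lrp1, a receptor of the low-density lipoprotein receptor family, stood at 13.5, 54.6 and 26.1 TPM in dormant WT and 8.58, 13.4 and 7.72 TPM across dormant KO, without overlap but not called (difference -1.39 ± 0.57, limma, adjusted p = 0.102). Tlr4, a receptor through which calprotectin signals, read 7.28, 0 and 0.56 TPM in dormant WT and 6.27, 0.55 and 4.55 TPM across dormant KO (limma, adjusted p = 0.592).

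**Figure D4:**
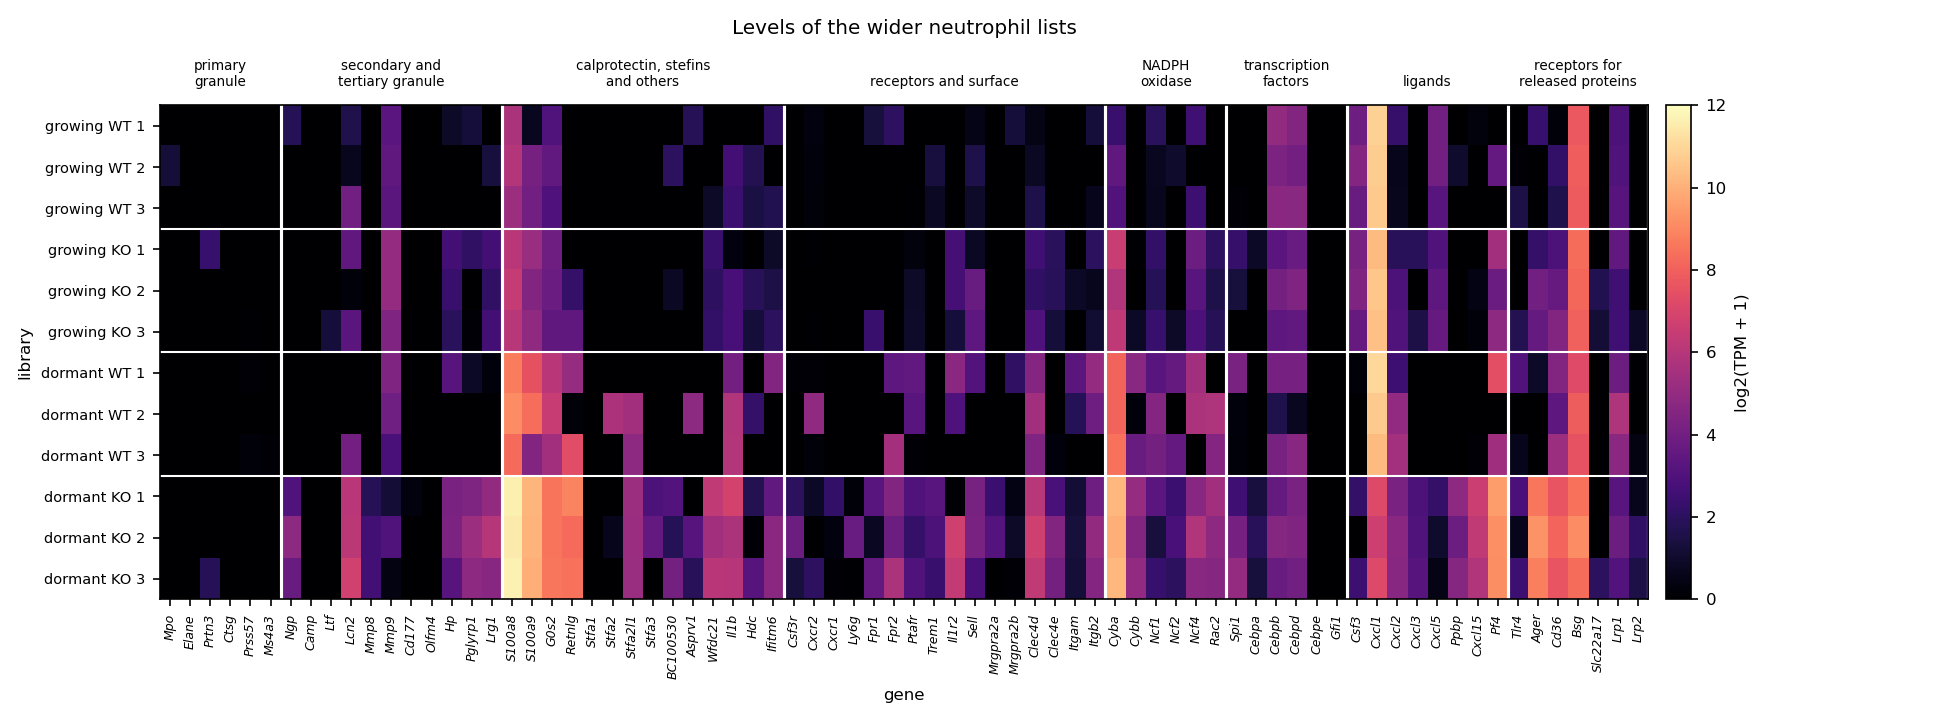
Levels of the 74 genes of the wider lists (columns, by list) in the 12 libraries (rows, by group), coloured by log2(TPM + 1). Primary granule genes are dark in every group, the S100a8, S100a9 and G0s2 columns brighten from growing to dormant KO, and Cxcl1 is bright in all groups except dormant KO, where it is between 103 and 147 TPM.

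Over the 12 libraries, the genes with a pattern most like that of S100a8 were G0s2 (Pearson's r 0.998), Pla2g16 (0.969), Hbb-bs (0.968), RP23-225D14.1 (0.962) and Hba-a1 (0.961), among all tested genes. Hbb-bs and Hba-a1 are globin genes, and they stood at 2210 to 3085 TPM and 3378 to 4894 TPM in dormant WT, 11521 to 13973 TPM and 18576 to 19783 TPM across dormant KO. For Lcn2 they were B4galt4 (0.946), Ccl3 (0.943), Trim25 (0.943), Hsd11b1 (0.905) and Lyve1 (0.896). The 2 sets had 0 genes in common, and the r values describe 12 libraries of 4 groups.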

How the data were processed

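Gene levels were measured in 12 libraries, 3 for each combination of host and state. The authors sorted small aliquots of cells, prepared libraries (a Smart-seq protocol by the methods, a TruSeq mRNA kit per the labels) and deposited TPM. The submitters' processing notes name bcl2fastq 2.20, cutadapt 1.18, STAR 2.5.2b, RSEM 1.3.3, DESeq2 and mm10. RSEM shares reads among similar sequences by an estimate, so that copies and overlapping genes are uncertain. TPM holds no depth, so that precision rests on the spread of 3 libraries per group, pooled for each gene over the 4 groups. That spread was not alike in all groups. Array weights, lower for a wider spread, were between 0.196 and 0.3085 in dormant WT and between 2.40 and 2.78 in growing WT. A further 30 per-sample columns match no sample of the labels and were left out, among them 6 named as WT of batch 2.

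Levels were transformed to log2(TPM + 1), which understates the change of low genes. Genes with at least 1 TPM in at least 3 libraries (13002 of 54146) were fitted with limma 3.58.1 (R 4.3.3, eBayes with a trend, 4 group means, 8 residual degrees of freedom). Genes were called at a Benjamini-Hochberg adjusted p of at most 0.05 over all tested genes and a difference of at least 1, two-sided, in 5 comparisons. Batch could be no covariate, since it follows the host. The members and lists were chosen with earlier results of these data known. Named were all members, up to 3 called genes with the largest difference per list and comparison, the 5 genes most like S100a8 and Lcn2, and markers where a result needed them, and a list gene is described here only where its values add to the members. Cebpe, Gfi1, Ly6g, Elane, Lrp1 and Tlr4 were named after their values were seen. List genes were matched by gene ID, since the table lists Retnlg as Retnig and BC100530 as Stfa3, the name of another gene of the same list. Coordinates are from GENCODE M21 (54079 of 54146 IDs matched), and 10 of 10 promoters were matched in RefSeq. The scripts were tested on simulated data. The fit was repeated without each library, with a replicate block, with array weights, on the compared groups alone, after quantile or median-ratio normalization, at a pseudocount of 0.1 or 5, and with no filter or one at 5 TPM.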

Additional observations from a re-analysis of the deposited data

Results flagged for a closer look

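The dormant against growing difference of 3 members differed between KO and WT hosts by a test of that difference itself, the interaction term of the limma fit. It was larger in the KO libraries by 2.35 for S100a8, by 4.47 for Ngp and by 2.0 for G0s2, on the log2(TPM + 1) scale. Over all tested genes, 6.18% were called in that direction. For Ngp, where the dormant WT and growing KO libraries are all at 0, the value rests on the pseudocount and is no fold. Ngp passed the filter only through dormant KO, the group where it is high, and its call was lost with array weights (adjusted p = 0.0521). The G0s2 call was lost in 9 of 20 alternatives, each without 1 library. All 3 values rest on the dormant KO libraries, in which tumor line markers were low and lung markers high, and host and library batch cannot be told apart in them.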

How the results depend on the processing

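Of 30 member differences (6 genes in 5 comparisons), none that was called changed direction under the 20 or 21 alternatives each (16 or 17 where Csf3r is concerned, which is not tested at a minimum of 5 TPM or without a dormant KO library). The number of members called between the dormant groups was 3 with array weights, which kept S100a8, Ngp and G0s2, and between 4 and 6 without 1 library. It was between 2 and 3 for the states in WT hosts, 4 and 6 in KO hosts and 2 and 4 for the interaction without 1 library, and 0 between the growing groups in all 21 alternatives. The calls of S100a9 were lost in 8 alternatives between the dormant groups and in 14 between the states in WT hosts. Csf3r between the dormant groups was lost in 4 of 17, among them a pseudocount of 5 (difference 0.98), and it was called in the interaction with a pseudocount of 0.1 (adjusted p = 0.0146) and with median-ratio scaling (0.0377). Array weights also ended the calls of Lcn2 between the dormant groups (adjusted p = 0.162) and of Ngp in the interaction (0.0521). The uncalled Lcn2 difference changed sign between the growing groups, to -0.0063 with a pseudocount of 0.1, -0.476 without growing WT replicate 2, -0.34 without growing KO replicate 1 and -0.26 without growing KO replicate 3 (up to 1.32, without growing KO replicate 2), and between the states in WT hosts to 0.18 without growing WT replicate 3 (down to -2.11 without dormant WT replicate 3 and -2.41 with a pseudocount of 0.1). The cause was not tested.

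Over all genes, calls between the dormant groups fell from 2898 to 1680 in a fit of only the groups compared and to 1418 with array weights. Between the growing groups they went from 127 to 308 and 516, and to between 66 and 163 without 1 library. Between the states they went from 977 to 637 with no filter, 310 with array weights and between 447 and 1918 without 1 library in WT hosts, and from 2313 to 3586 with array weights in KO hosts. The interaction gave 1312 and, without 1 library, between 861 and 1937. Median-ratio scaling moved the share of higher calls to 74% between the dormant groups, 69.2% between the states in KO hosts and 79.1% in the interaction, and the median difference of all genes between the dormant groups from 0.17 to 0.50. That median was -0.14 with quantile normalization, a turned direction, and 0.58 and 0.0076 with a pseudocount of 0.1 and 5. With quantile normalization the share of higher calls was 50.6% and 56.9% between the states in WT and KO hosts. Of 947 values of named list genes under alternatives, 847 kept their call, 100 lost it and 0 changed sign.

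Replicate numbers did not pair the samples. The correlation of deviations between 18 same-numbered pairs was between -0.0147 and 0.0206, and in 5 of 18 the library correlated best with its own number. With the replicate block, 6, 0, 2, 6 and 3 members were called in the 5 comparisons, and the S100a9 difference between the states in WT hosts, 3.84, had an adjusted p of 0.0569. Depth is unknown, so that genes listed at 0 cannot be told from genes below detection.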
